A study of Mus musculus with 12 samples.

Results

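The genes described here are nuclear genes for subunits of respiratory chain complexes I, II and III. They were chosen by symbol, as the NDUFA, NDUFB, NDUFC, NDUFS and NDUFV genes, the 4 SDH subunit genes, the UQCR genes and CYC1, with symbols of pseudogenes dropped. The rule found 52 genes among the 36292 human symbols of the table, 38 for complex I, 4 for complex II and 10 for complex III, and no pseudogene symbol had to be removed. All 52 passed the low-count filter that kept 15836 genes for testing. The study grew Hep3B, a human hepatocellular carcinoma line, as subcutaneous tumors in female BALB/c nu/nu mice of about 8 weeks, and sequenced tumor RNA by RNA-seq. The mice carry the nude mutation and so lack mature T cells, and the tumors of all groups come from the same cell line injected in Matrigel. The combination group received both agents. The H3B-6527 group received the FGFR4 inhibitor H3B-6527 at 300 mg/kg, the lenvatinib group received lenvatinib, which blocks several receptor tyrosine kinases including those for VEGF and FGF, at 10 mg/kg, and the vehicle group received vehicle alone, all by oral gavage. Each group had 3 mice and gave 3 tumors, collected 8 hours after the fourth daily dose, with treatment begun at a mean tumor volume near 500 mm3.

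Complex I takes electrons from NADH, complex II takes them from succinate as part of the citric acid cycle, and both pass them to coenzyme Q. Complex III moves them on to cytochrome c, and complexes I and III pump protons across the inner mitochondrial membrane as they do so. Complex I is an L-shaped assembly whose peripheral arm holds the flavin and the iron-sulfur clusters, and its membrane arm holds core subunits encoded in mitochondrial DNA. Most of its nuclear subunits are accessory ones, needed for assembly and stability rather than for electron transfer. Hepatocytes are rich in mitochondria, and liver tumors differ in how far they keep respiration beside glycolysis.

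Library totals ran from 23.8 to 40.9 M (mega) counts, the smallest being H3B-6527 replicate 3. Levels below are CPM, counts per M of a library's total times its TMM scaling factor. The defining liver tumor transcripts were present in every group, with the 10 markers summing to between 142022 and 157159 CPM in combination tumors, 121937 and 165949.6 CPM in H3B-6527 tumors, 82786 and 102228 CPM in lenvatinib tumors, and 81599.6 and 88942 CPM in vehicle tumors. All 6 endothelial markers had means under 1 CPM and summed to at most 0.544 CPM in any tumor, so that defining host vessel transcripts were near 0 in this human table. Means under 1 CPM were also found for 4 of 6 fibroblast, 4 of 7 macrophage, 6 of 8 skeletal muscle, 3 of 4 adipocyte and 5 of 5 erythroid markers. The summed liver, muscle and adipocyte markers were higher, and the fibroblast and erythroid ones lower, in all combination and H3B-6527 tumors than in all vehicle tumors, and their part in the results was not tested. ALB and AFP made up most of the rise of the liver sum. APOA1, TTR, GPC3 and KLB also rose in both groups, and SERPINA1 with the combination. FGFR4 and FGF19 had lower means, at 131, 123 and 150 CPM and at 1.94, 1.93 and 3.49 CPM with the combination, H3B-6527 and vehicle. APOB hardly moved, with 25032, 26188 and 25581 CPM. The erythroid ALAS2 had higher means than vehicle, with 0.461, 0.351 and 0.263 CPM. Fibroblast markers summed to 31.6 to 36.3 CPM with the combination, 26.9 to 36.3 CPM with H3B-6527 and 50.2 to 55.9 CPM with vehicle. Most of it was PDGFRB. Adipocyte markers summed to 32.9 to 50.6 CPM with the combination, 27.9 to 70.99 CPM with H3B-6527 and 3.205 to 3.69 CPM with vehicle, nearly all of it PLIN1. The muscle sum was carried by MYH4, a myosin with mean levels of 7.17 CPM with the combination, 6.997 CPM with H3B-6527 and 0.272 CPM with vehicle. CKM, the muscle creatine kinase, fell, with 0.798, 0.729 and 1.59 CPM in those groups. In bulk tumors, fewer cells of a type and less RNA per cell cannot be told apart. Nothing in the labels says more of the replicates than that each is a tumor of its own mouse, so the tests measure the spread between tumors of 1 line.

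Few of the respiratory chain genes passed the test against vehicle, and their fold changes were mostly small. With H3B-6527, 7 of 52 genes fell and 1 rose (edgeR quasi-likelihood test, Benjamini-Hochberg adjusted p under 0.05). Of all genes tested, 24.3% fell and 25.2% rose, so that 15.4% of the 52 stand beside 49.4% of all genes. With the combination, 4 fell and 5 rose, against 25.3% and 24.8% of all genes, or 17.3% beside 50.1% in either direction. In 18 genes every combination tumor exceeded every vehicle tumor and in 7 every one lay below, beside 31.8% and 32.8% of all genes. For H3B-6527 these counts were 1 and 4, beside 28.1% and 27.9%. NDUFS5 and UQCRH were lower in both comparisons and SDHD was higher in both, though the comparisons share the vehicle tumors. The median absolute log2 fold change was 0.17 over the 52 genes with H3B-6527, beside 0.41 over all genes, and 0.17 with the combination, beside 0.41. The 95% interval of the fold change lay within 2-fold in both directions for 48 of 52 genes with H3B-6527 and 49 with the combination, against 60.7% and 60.7% of all genes. That interval had a median half-width of 0.27 on the log2 scale with H3B-6527, which limits how small a shift of a typical gene could be seen. A log2 fold change of 1 or more in either direction was found for NDUFA4L2 with H3B-6527 and for none of the 52 with the combination.

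**Figure D1:**
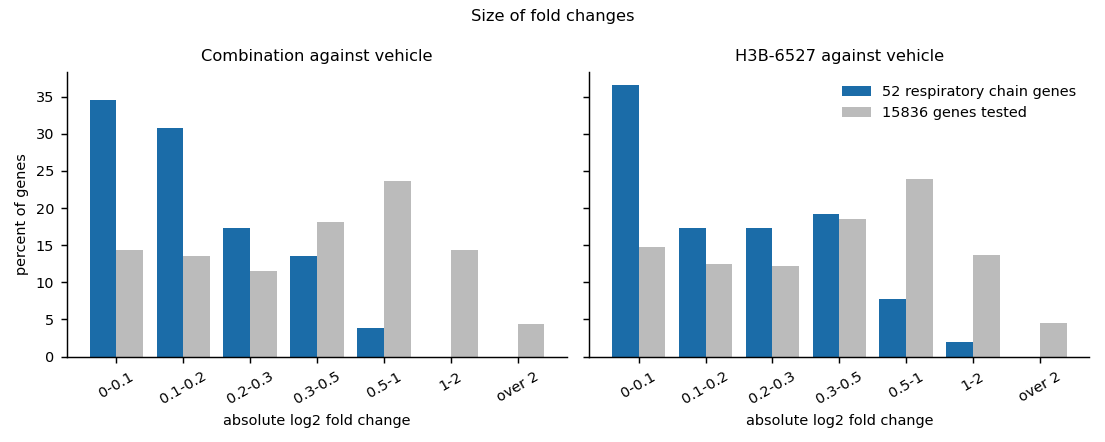
Share of genes (percent) by absolute log2 fold change against vehicle, for the 52 respiratory chain genes (blue) and all 15836 genes tested (grey), with the combination on the left and H3B-6527 on the right. Values under 0.1 hold 34.6% of the 52 genes with the combination and 36.5% with H3B-6527, beside 14.4% and 14.8% of all genes.

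Which genes fell with H3B-6527 depended on single tumors. Without H3B-6527 replicate 1, 2 genes fell (NDUFS5 and UQCRH) and 2 rose (SDHA and SDHD). Without H3B-6527 replicate 2, 22 fell and 1 rose, and without replicate 3, 8 fell and 4 rose. Leaving out vehicle replicate 1, 2 or 3 left 3, 4 and 3 lower. Scaling by library totals moved the median log2 fold change over all genes to −0.11 and gave 17 lower and 1 higher. NDUFS5, UQCRH and SDHD passed under every alternative run for this comparison. In the combination comparison, leaving out combination replicate 1, 2 or 3 gave 2, 1 and 3 lower and 4, 5 and 5 higher. Without vehicle replicate 1, 2 or 3 the combination left 1, 4 and 1 lower. Library totals gave 7 lower and 1 higher there, and upper-quartile factors 3 lower and 11 higher. NDUFS5 and SDHD passed under every alternative against vehicle in the combination comparison as well.

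**Figure D2:**
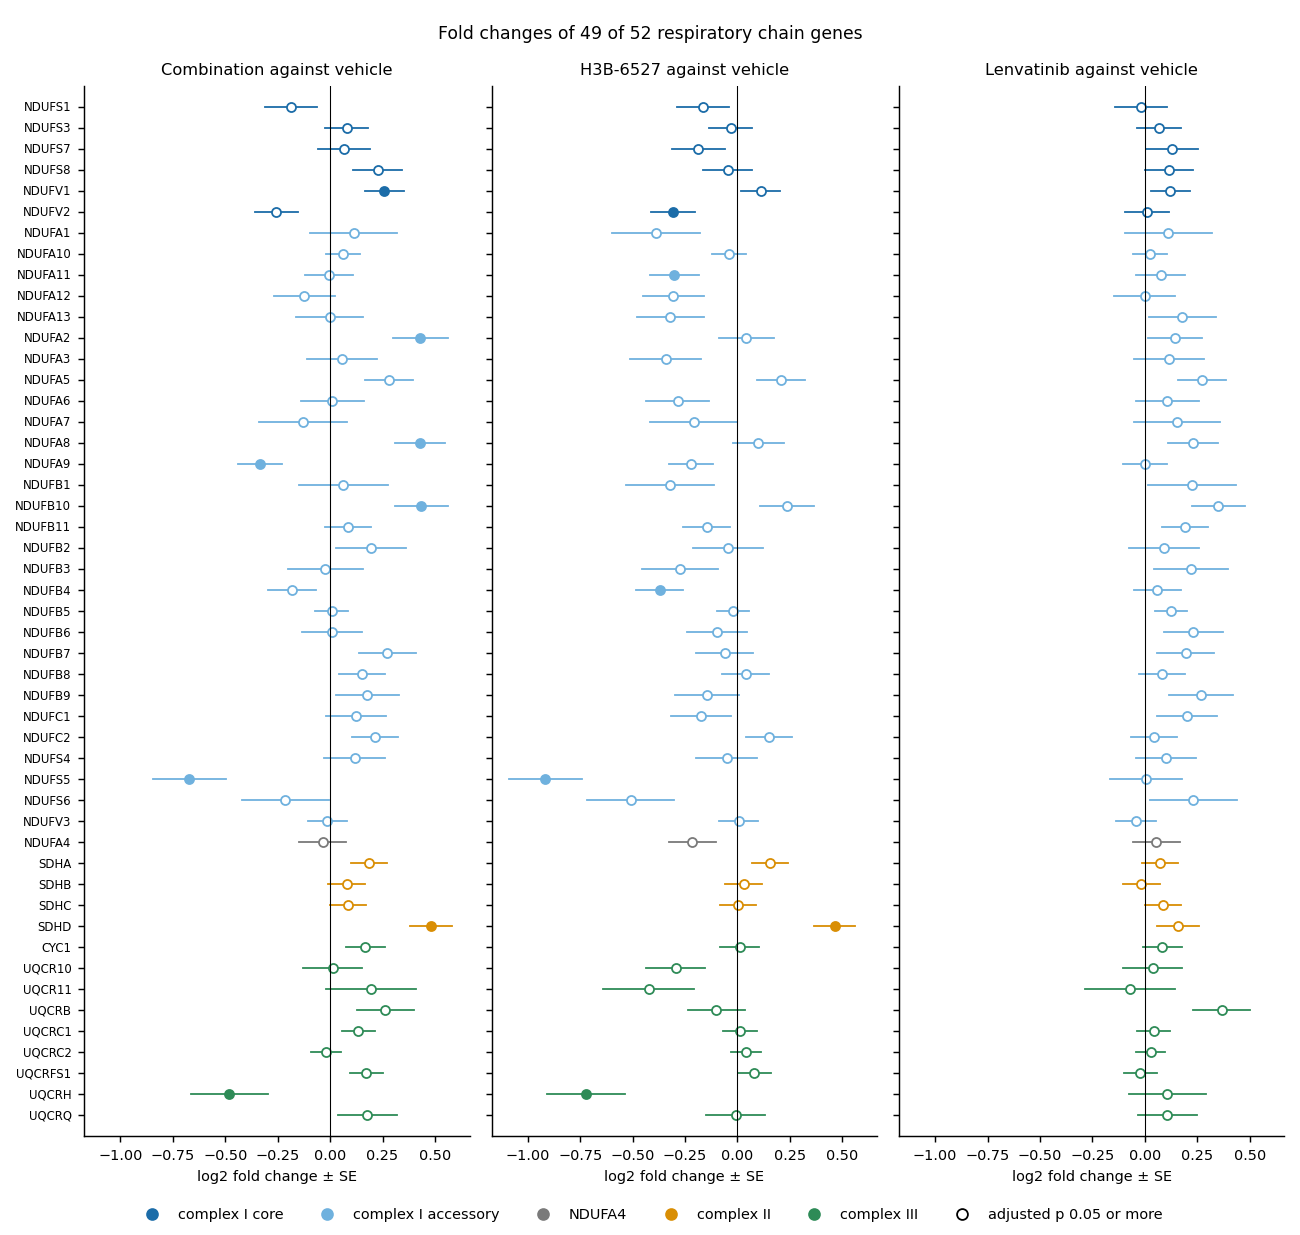
Log2 fold changes against vehicle with SE (horizontal axes) of 49 respiratory chain genes (rows, coloured by complex), with the combination, H3B-6527 and lenvatinib from left to right. Filled points passed adjusted p 0.05, and NDUFS5 and UQCRH lie farthest to the left in the first 2 panels while no point is filled for lenvatinib.

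The nuclear core subunits of complex I carry the electron path from NADH to coenzyme Q. Among them, NDUFV2 fell with H3B-6527 and NDUFV1 rose with the combination. Values after ± are SEs of log2 fold changes, derived from the edgeR fold change and its F statistic, with 3 tumors in each group.

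NDUFV2, which holds a binuclear iron-sulfur cluster beside the flavin, fell by 0.31 ± 0.10 (adjusted p = 0.0271) with H3B-6527, and its combination value was −0.26 ± 0.10 (adjusted p = 0.0567). NDUFV2 had 80.3, 68.6 and 73.7 CPM in combination tumors, 65.7, 80.7 and 68.5 CPM in H3B-6527 tumors, 92.8, 95.3 and 79.6 CPM in lenvatinib tumors and 91.3, 80.1 and 94.4 CPM in vehicle tumors. H3B-6527 replicate 2 reached into the vehicle range. The NDUFV2 call was lost in a fit of the 2 groups alone, without vehicle replicate 1 or 3 or without H3B-6527 replicate 1 or 3 (adjusted p from 0.0568 to 0.102). NDUFV1, the subunit that binds NADH and the flavin, went the other way. NDUFV1 had 417, 349 and 376 CPM in combination tumors, 329.5, 384 and 317 CPM in H3B-6527 tumors, 345, 352 and 341 CPM in lenvatinib tumors and 327, 320.1 and 307 CPM in vehicle tumors. It rose by 0.26 ± 0.09 (adjusted p = 0.0323) with the combination, all 3 of whose tumors exceeded the vehicle tumors, and its H3B-6527 value was 0.11 ± 0.09 (adjusted p = 0.344) with overlapping groups. The NDUFV1 call was lost with library totals, with no low-count filter, without vehicle replicate 1, 2 or 3 or without combination replicate 1 or 3 (adjusted p from 0.0604 to 0.318). NDUFV1 had a log2 fold change of 0.12 with library totals for the combination against vehicle.

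The core subunits NDUFS1, NDUFS3, NDUFS7 and NDUFS8 did not pass the test in any comparison. NDUFS1 had 189, 236 and 240.4 CPM in combination tumors, 188, 222 and 265 CPM in H3B-6527 tumors, 264, 238 and 246 CPM in lenvatinib tumors and 253, 263 and 241 CPM in vehicle tumors, with a log2 fold change of −0.19 ± 0.12 (adjusted p = 0.225) for the combination. This is the largest subunit of the peripheral arm, and all 3 combination tumors lay below the vehicle tumors. NDUFS3 had 257, 229 and 238 CPM in combination tumors, 215, 262 and 193 CPM in H3B-6527 tumors, 237, 256 and 225 CPM in lenvatinib tumors and 228, 224 and 234 CPM in vehicle tumors. NDUFS7 had 65.2, 66.01 and 64.8 CPM in combination tumors, 43.3, 67.2 and 54.1 CPM in H3B-6527 tumors, 68.1, 74.4 and 62.4 CPM in lenvatinib tumors and 64.95, 60.4 and 62.05 CPM in vehicle tumors. NDUFS3 and NDUFS7 sit at the base of the peripheral arm, and in both the lowest of the 12 tumors belonged to the H3B-6527 group. NDUFS8 had 138, 138 and 131 CPM in combination tumors, 96.9, 137 and 104 CPM in H3B-6527 tumors, 124, 136 and 118 CPM in lenvatinib tumors and 126, 108 and 115 CPM in vehicle tumors. This iron-sulfur subunit had log2 fold changes of 0.23 ± 0.12 (adjusted p = 0.121) with the combination, whose tumors all exceeded the vehicle tumors, and −0.05 ± 0.12 (adjusted p = 0.768) with H3B-6527.

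Among the 29 accessory subunits of complex I, 3 fell and 0 rose with H3B-6527, and 2 fell and 3 rose with the combination. These are 10.3% and 17.2% of the 29, beside 49.4% and 50.1% of all genes tested. The symbol rule leaves out NDUFAB1, also an accessory subunit, which is not counted among the 29. NDUFAB1 had −0.29 ± 0.12 (adjusted p = 0.0586) with H3B-6527 and −0.24 ± 0.12 (adjusted p = 0.115) with the combination. All tumors of both groups lay below all vehicle tumors for NDUFAB1. Among the 29, values were as follows. The largest fall was that of NDUFS5, a small subunit on the intermembrane-space side that carries no iron-sulfur cluster despite its name. NDUFS5 had 44.2, 39.03 and 42.97 CPM in combination tumors, 24.2, 44.9 and 37.4 CPM in H3B-6527 tumors, 67.4, 74.3 and 60.1 CPM in lenvatinib tumors and 70.1, 60.9 and 69.98 CPM in vehicle tumors. The combination and H3B-6527 tumors lay below all lenvatinib and vehicle tumors, with H3B-6527 replicate 1 the lowest. NDUFS5 fell by 0.92 ± 0.17 (adjusted p = 0.00095) with H3B-6527 and by 0.67 ± 0.17 (adjusted p = 0.00629) with the combination. Over the alternatives its value ran from −1.13 to −0.70 with H3B-6527 and from −0.81 to −0.61 with the combination.

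NDUFB4, an accessory subunit of the distal membrane arm, fell by 0.37 ± 0.11 (adjusted p = 0.0161) with H3B-6527 and had a combination value of −0.18 ± 0.11 (adjusted p = 0.2). NDUFB4 had 96.3, 97.3 and 93.8 CPM in combination tumors, 71.9, 101 and 78.7 CPM in H3B-6527 tumors, 115, 119 and 106 CPM in lenvatinib tumors and 116, 97.6 and 113 CPM in vehicle tumors. The H3B-6527 group overlapped the vehicle group through its replicate 2. The NDUFB4 call was lost in a fit of the 2 groups alone, without vehicle replicate 1 or 3 or without H3B-6527 replicate 1 (adjusted p from 0.0556 to 0.0661). NDUFA11, a membrane-arm subunit, fell by 0.30 ± 0.12 (adjusted p = 0.0463) with H3B-6527 and had −0.01 ± 0.12 (adjusted p = 0.974) with the combination. NDUFA11 had 97.1, 94.1 and 90.9 CPM in combination tumors, 61.8, 93.7 and 74.3 CPM in H3B-6527 tumors, 102, 94.6 and 102 CPM in lenvatinib tumors and 97.3, 93.3 and 92.5 CPM in vehicle tumors. Here too H3B-6527 replicate 2 lay within the vehicle range and replicate 1 was the lowest tumor. The NDUFA11 call was lost with upper-quartile factors, in a fit of the 2 groups alone, without vehicle replicate 1, 2 or 3 or without H3B-6527 replicate 1 or 3 (adjusted p from 0.0727 to 0.162). NDUFA11 had a log2 fold change of −0.17 without H3B-6527 replicate 1 and −0.48 without H3B-6527 replicate 2 for H3B-6527 against vehicle.

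NDUFA9, which sits where the arms meet and binds a nucleotide cofactor, fell by 0.33 ± 0.10 (adjusted p = 0.0178) with the combination, and its H3B-6527 value was −0.22 ± 0.10 (adjusted p = 0.0965). NDUFA9 had 45.8, 46.04 and 50.2 CPM in combination tumors, 42.4, 53.3 and 58.01 CPM in H3B-6527 tumors, 60.5, 61.97 and 56.7 CPM in lenvatinib tumors and 62.2, 55.2 and 61.6 CPM in vehicle tumors. The combination tumors were below all vehicle tumors, and the H3B-6527 tumors spanned from below them into the vehicle range. The NDUFA9 call was lost without vehicle replicate 1 or 3 or without combination replicate 1 or 2 (adjusted p from 0.0611 to 0.0655). NDUFS6, a zinc-binding subunit of the peripheral arm, had −0.51 ± 0.21 (adjusted p = 0.0604) with H3B-6527, whose 3 tumors lay below the vehicle tumors, and −0.21 ± 0.21 (adjusted p = 0.416) with the combination.

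The accessory subunits NDUFA2, NDUFA8 and NDUFB10 rose with the combination. NDUFA2 had 36.5, 31.5 and 30.9 CPM in combination tumors, 20.8, 31.2 and 23.5 CPM in H3B-6527 tumors, 27.9, 28.2 and 24.8 CPM in lenvatinib tumors and 24.4, 23.8 and 25.2 CPM in vehicle tumors. NDUFA8 had 36.7, 31.5 and 30.7 CPM in combination tumors, 21.9, 30.9 and 25.97 CPM in H3B-6527 tumors, 29.8, 28.2 and 28.1 CPM in lenvatinib tumors and 22.6, 24.3 and 26.6 CPM in vehicle tumors. NDUFB10 had 39.7, 37.3 and 36.9 CPM in combination tumors, 30.2, 41.6 and 27.2 CPM in H3B-6527 tumors, 35.6, 38.5 and 33.3 CPM in lenvatinib tumors and 27.8, 28.6 and 27.7 CPM in vehicle tumors. In all 3 genes every combination tumor exceeded every vehicle tumor, while the H3B-6527 tumors ran from below to above the vehicle range. NDUFA2, a peripheral-arm subunit with a thioredoxin-like fold, rose by 0.43 ± 0.13 (adjusted p = 0.0141), NDUFA8 by 0.43 ± 0.12 (adjusted p = 0.00947) and NDUFB10 by 0.44 ± 0.13 (adjusted p = 0.0125). NDUFA8 and NDUFB10 both face the intermembrane space and are held by disulfide bonds. With H3B-6527 alone the values were 0.04 ± 0.13 (adjusted p = 0.811), 0.10 ± 0.12 (adjusted p = 0.518) and 0.24 ± 0.13 (adjusted p = 0.142). The NDUFA2 call was lost with library totals or without combination replicate 1 (adjusted p from 0.0668 to 0.07). NDUFA2 had a log2 fold change of 0.29 with library totals for the combination against vehicle. The NDUFA8 call was lost with library totals (adjusted p = 0.0665). NDUFA8 had a log2 fold change of 0.28 with library totals for the combination against vehicle. The NDUFB10 call was lost with library totals (adjusted p = 0.0541). NDUFB10 had a log2 fold change of 0.29 with library totals for the combination against vehicle.

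The other 21 of the 29 accessory subunits did not pass in either comparison. Their H3B-6527 values ran from −0.39 (NDUFA1) to 0.21 (NDUFA5) and their combination values from −0.13 (NDUFA7) to 0.28 (NDUFA5). By symbol family, the 12 NDUFA accessory genes had a median of −0.25 with H3B-6527, the 11 NDUFB genes −0.10 and the 3 NDUFS genes −0.51, beside 0.01 over all genes. With the combination those medians were 0.03, 0.08 and −0.21, beside 0.01 over all genes. NDUFC2 shares its locus with the read-through symbol NDUFC2-KCTD14, which drew at most 61 counts in a library, so its own value carries that small uncertainty. The value of NDUFC2 was 0.15 ± 0.11 (adjusted p = 0.275) with H3B-6527.

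NDUFA4 bears a complex I name but has since been placed in cytochrome c oxidase, complex IV. NDUFA4 had 215, 208 and 208 CPM in combination tumors, 156, 228 and 173 CPM in H3B-6527 tumors, 229, 225 and 218 CPM in lenvatinib tumors and 217, 207 and 223 CPM in vehicle tumors. It did not pass, with −0.03 ± 0.11 (adjusted p = 0.823) for the combination and −0.22 ± 0.11 (adjusted p = 0.127) for H3B-6527. Its paralog NDUFA4L2, known as a target of hypoxia-inducible factor that lowers complex I activity, was scarce. It had 65, 50 and 47 counts in combination tumors, 7, 8 and 18 in H3B-6527 tumors, 70, 72 and 206 in lenvatinib tumors and 24, 74 and 29 in vehicle tumors. In CPM these were 2.06, 1.73 and 1.19 with the combination, 0.1801, 0.217 and 0.754 with H3B-6527, 1.92, 2.31 and 5.28 with lenvatinib and 0.6702, 1.89 and 0.762 with vehicle. All combination and lenvatinib tumors exceeded all H3B-6527 tumors, and lenvatinib replicate 3 held the highest value. NDUFA4L2 fell by 1.66 ± 0.64 (adjusted p = 0.0466) with H3B-6527, though its groups overlapped. Its log2 fold change was 1.52 ± 0.52 (adjusted p = 0.306) for lenvatinib against vehicle, 2.23 ± 0.62 (adjusted p = 0.344) for the combination against H3B-6527 and 0.57 ± 0.53 (adjusted p = 0.399) for the combination against vehicle. The NDUFA4L2 call was lost with upper-quartile factors, with limma-voom, with no low-count filter, in a fit of the 2 groups alone, without vehicle replicate 2 or without H3B-6527 replicate 1 or 2 (adjusted p from 0.0535 to 0.21). NDUFA4L2 had a log2 fold change of −1.03 without vehicle replicate 2 for H3B-6527 against vehicle.

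Complex II consists of 4 nuclear subunits, and SDHD alone among them passed. Against vehicle, 25% of the 4 rose under H3B-6527 and 25% under the combination, beside 25.2% and 24.8% of all genes tested. SDHD is a membrane anchor that helps bind heme and coenzyme Q. SDHD had 80.3, 83.7 and 83.2 CPM in combination tumors, 84.9, 89.2 and 69.7 CPM in H3B-6527 tumors, 70.2, 68.2 and 59.4 CPM in lenvatinib tumors and 53.98, 60.97 and 62.1 CPM in vehicle tumors. Every combination and H3B-6527 tumor exceeded every vehicle tumor, and H3B-6527 replicate 3 lay within the lenvatinib range. SDHD rose by 0.46 ± 0.10 (adjusted p = 0.00204) with H3B-6527 and by 0.48 ± 0.10 (adjusted p = 0.00151) with the combination. Its value over the alternatives ran from 0.34 to 0.56 with H3B-6527 and from 0.34 to 0.54 with the combination.

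SDHA had 356, 364 and 378 CPM in combination tumors, 320.2, 386 and 369 CPM in H3B-6527 tumors, 352, 350.4 and 312 CPM in lenvatinib tumors and 328, 318 and 319 CPM in vehicle tumors. This flavoprotein oxidizes succinate, and it had 0.19 ± 0.09 (adjusted p = 0.0903) with the combination, whose tumors lay above the vehicle tumors, and 0.16 ± 0.09 (adjusted p = 0.152) with H3B-6527. With H3B-6527 SDHA passed without H3B-6527 replicate 1 (adjusted p = 0.0258). With the combination SDHA passed with DESeq2, with upper-quartile factors or in a fit of the 2 groups alone (adjusted p from 0.0207 to 0.0496). SDHB had 63.2, 74.8 and 67.05 CPM in combination tumors, 60.4, 73.9 and 63.9 CPM in H3B-6527 tumors, 67.4, 63.3 and 61.2 CPM in lenvatinib tumors and 65.5, 64.1 and 64.5 CPM in vehicle tumors. The iron-sulfur subunit SDHB overlapped between all groups, with a 95% interval of −0.16 to 0.22 for the log2 fold change with H3B-6527 and −0.11 to 0.27 with the combination. SDHC had 213, 205 and 215 CPM in combination tumors, 199.6, 214 and 183 CPM in H3B-6527 tumors, 220.4, 218 and 195 CPM in lenvatinib tumors and 198, 186 and 213 CPM in vehicle tumors. For this partner anchor of SDHD the intervals were −0.18 to 0.19 and −0.10 to 0.27. The difference between SDHD and SDHC was not tested.

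After NDUFS5 and the scarce NDUFA4L2, the next largest fall with H3B-6527 was that of UQCRH of complex III, the hinge subunit that links cytochrome c1 to cytochrome c. UQCRH had 40.03, 43.7 and 41.2 CPM in combination tumors, 22.4, 46.2 and 37.1 CPM in H3B-6527 tumors, 64.7, 61.7 and 61.4 CPM in lenvatinib tumors and 57.4, 56.3 and 60.7 CPM in vehicle tumors. All combination and H3B-6527 tumors were below all lenvatinib and vehicle tumors, and H3B-6527 replicate 1 was lowest. UQCRH fell by 0.72 ± 0.18 (adjusted p = 0.00648) with H3B-6527 and by 0.48 ± 0.18 (adjusted p = 0.0451) with the combination. UQCRH had a log2 fold change of −0.48 without H3B-6527 replicate 1 for H3B-6527 against vehicle. The UQCRH call with the combination was lost with upper-quartile factors, with no low-count filter, without vehicle replicate 1, 2 or 3 or without combination replicate 1, 2 or 3 (adjusted p from 0.0642 to 0.118). Its near-identical copy UQCRHL drew 8, 8 and 2 counts in combination tumors, 13, 13 and 0 in H3B-6527 tumors, 7, 6 and 4 in lenvatinib tumors and 4, 11 and 2 in vehicle tumors. How reads were split between the copies is not known, and UQCRHL values are too few to read a change from.

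The catalytic subunits of complex III did not pass in either comparison. UQCRFS1 had 42.2, 48.3 and 45.9 CPM in combination tumors, 40.1, 45.02 and 42.8 CPM in H3B-6527 tumors, 41.4, 38.7 and 39.03 CPM in lenvatinib tumors and 39.3, 41.96 and 39.7 CPM in vehicle tumors. The Rieske iron-sulfur protein UQCRFS1 had 0.17 ± 0.08 (adjusted p = 0.0811) with the combination and 0.08 ± 0.08 (adjusted p = 0.414) with H3B-6527. With the combination UQCRFS1 passed with upper-quartile factors or without combination replicate 1 (adjusted p from 0.0227 to 0.0491). CYC1 had 65.1, 62.8 and 64.03 CPM in combination tumors, 52.1, 67.00 and 52.98 CPM in H3B-6527 tumors, 61.6, 61.4 and 57.9 CPM in lenvatinib tumors and 59.00, 53.8 and 58.1 CPM in vehicle tumors. Cytochrome c1 (CYC1) had 0.17 ± 0.09 (adjusted p = 0.152) and 0.01 ± 0.09 (adjusted p = 0.934). With the combination CYC1 passed with upper-quartile factors or in a fit of the 2 groups alone (adjusted p from 0.0374 to 0.046). In both genes all 3 combination tumors exceeded the vehicle tumors. The core proteins UQCRC1 and UQCRC2 had H3B-6527 values of 0.01 ± 0.08 (adjusted p = 0.92) and 0.04 ± 0.07 (adjusted p = 0.669), with 95% intervals of −0.16 to 0.18 and −0.11 to 0.19.

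Small subunits of complex III varied more with H3B-6527. UQCR10 had 42.8, 33.5 and 35.9 CPM in combination tumors, 26.4, 37.1 and 27.01 CPM in H3B-6527 tumors, 39.2, 41.5 and 33.4 CPM in lenvatinib tumors and 37.8, 33.6 and 39.8 CPM in vehicle tumors. UQCR11 had 6.45, 6.39 and 5.03 CPM in combination tumors, 3.395, 5.37 and 2.72 CPM in H3B-6527 tumors, 4.68, 5.100 and 5.03 CPM in lenvatinib tumors and 6.26, 4.54 and 4.78 CPM in vehicle tumors. UQCRB had 153, 139 and 135 CPM in combination tumors, 83.8, 138 and 109.6 CPM in H3B-6527 tumors, 154, 159.9 and 145 CPM in lenvatinib tumors and 117, 116 and 122 CPM in vehicle tumors. In all 3 genes the lowest of the 12 tumors belonged to the H3B-6527 group, and H3B-6527 replicate 2 lay within or above the vehicle range. The H3B-6527 values were −0.29 ± 0.14 (adjusted p = 0.0977) for UQCR10, −0.42 ± 0.22 (adjusted p = 0.124) for UQCR11 and −0.10 ± 0.14 (adjusted p = 0.56) for UQCRB, which helps shape the coenzyme Q site. With H3B-6527 UQCR10 passed with library totals or without H3B-6527 replicate 2 (adjusted p from 0.0106 to 0.019). UQCR10 had a log2 fold change of −0.47 without H3B-6527 replicate 2 for H3B-6527 against vehicle. With H3B-6527 UQCR11 passed with library totals or without H3B-6527 replicate 2 (adjusted p from 0.0078 to 0.0408). UQCR11 had a log2 fold change of −0.75 without H3B-6527 replicate 2 for H3B-6527 against vehicle. With the combination, UQCRB had 0.26 ± 0.14 (adjusted p = 0.123) and all 3 tumors above vehicle. With the combination UQCRB passed in a fit of the 2 groups alone (adjusted p = 0.00599). UQCRQ, another small subunit, had 0.18 ± 0.14 (adjusted p = 0.313) with the combination.

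**Figure D3:**
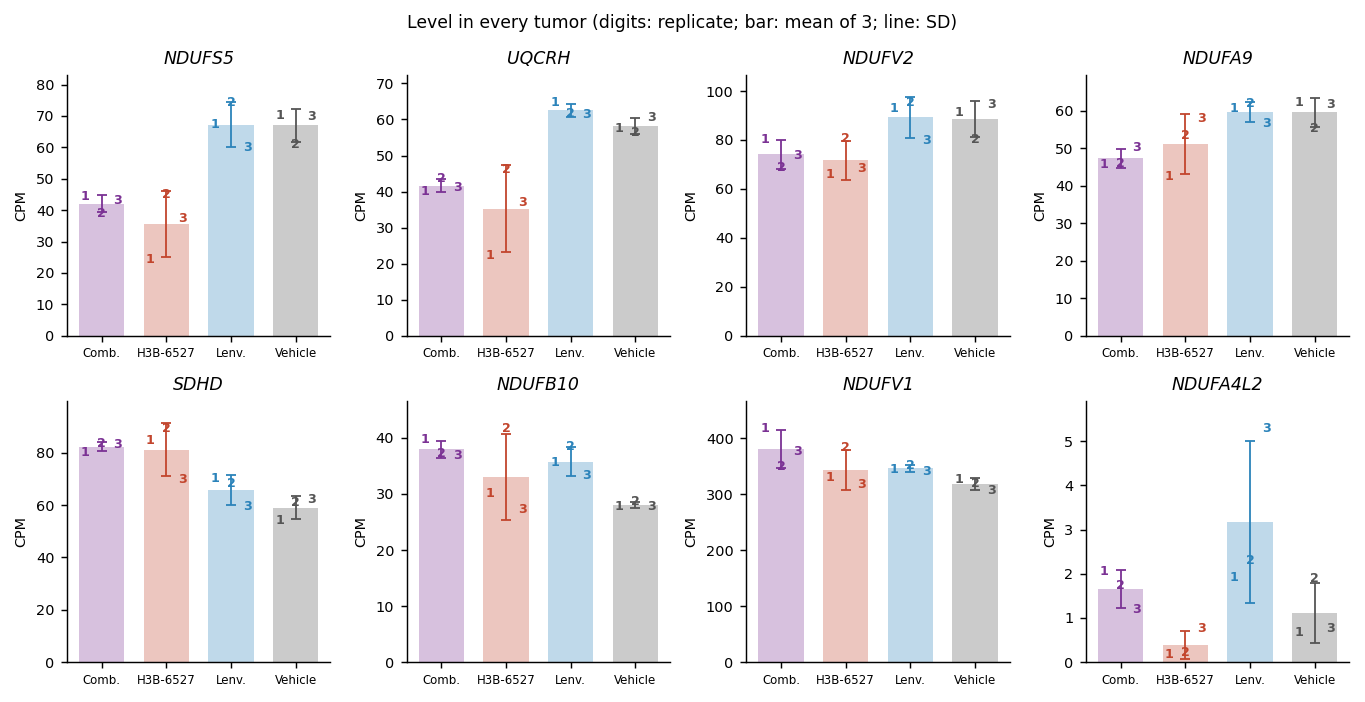
CPM (vertical axes from 0) of 8 genes in the 12 tumors, with digits for replicates, bars for group means and lines for SD, in the order combination, H3B-6527, lenvatinib, vehicle. NDUFS5 and UQCRH lie lower and SDHD higher in every combination and H3B-6527 tumor than in every vehicle tumor. H3B-6527 replicates spread most except for NDUFV2 and NDUFA4L2, where lenvatinib replicates did.

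The 52 genes moved together between the 3 H3B-6527 tumors. In 35 of 52 genes, replicate 1 was lowest, replicate 3 next and replicate 2 highest, an order found in 14.9% of all genes tested. In another 13, replicate 3 was lowest and replicate 2 highest, beside 10.2% of all genes. The median SD of log2(CPM + 0.5) between the tumors of a group was 0.275 for the 52 genes with H3B-6527, above the 0.196 over all genes. In the other groups it was below the value of all genes, at 0.0839 against 0.126 with the combination, 0.0832 against 0.123 with lenvatinib and 0.0702 against 0.106 with vehicle. By complex, the H3B-6527 spread was 0.299 for accessory and 0.221 for core subunits of complex I, 0.296 for complex III and 0.144 for complex II.

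A mean over genes of log2 CPM, each gene taken relative to its vehicle mean, shows the same per tumor as a description. Accessory subunits of complex I stood at 0.13, −0.01 and 0.03 in combination replicates 1 to 3, at −0.46, 0.13 and −0.24 in H3B-6527 replicates, at 0.17, 0.19 and 0.05 in lenvatinib replicates and at 0.03, −0.07 and 0.04 in vehicle replicates. Core subunits stood at 0.01, −0.05 and 0.00 with the combination, −0.30, 0.05 and −0.16 with H3B-6527, 0.07, 0.13 and −0.02 with lenvatinib and 0.04, −0.04 and 0.00 with vehicle. H3B-6527 replicates 1 and 3 were below every other tumor in both sets, and replicate 2 was not. Complex III without UQCRHL stood at 0.12, 0.07 and 0.02 with the combination, −0.39, 0.11 and −0.25 with H3B-6527, 0.10, 0.11 and 0.02 with lenvatinib and 0.03, −0.05 and 0.01 with vehicle. Complex II stood at 0.17, 0.24 and 0.22 with the combination, 0.11, 0.29 and 0.08 with H3B-6527, 0.15, 0.11 and −0.03 with lenvatinib and −0.02, −0.02 and 0.04 with vehicle. Only for complex II did all H3B-6527 and all combination tumors exceed all vehicle tumors, among these 4 sets. SDHD, the 1 complex II gene that passed, weighs on that mean. Its log2 fold changes were 0.46 with H3B-6527 and 0.48 with the combination, beside medians of 0.09 and 0.14 over the 4 genes. The level of complex II without SDHD was not computed.

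Other abundant gene families followed the same order among the H3B-6527 tumors. The 16 nuclear genes listed for ATP synthase (complex V) include its inhibitory factor. They stood at −0.40, 0.09 and −0.17 in H3B-6527 replicates 1 to 3, against 0.03, −0.01 and −0.01 with vehicle. A set of 78 cytosolic ribosomal protein genes, looked at after the values of the tumors were seen, stood at −0.95, −0.25 and −0.53 with H3B-6527, against 0.05, −0.06 and 0.01 with vehicle. The 13 citric acid cycle enzymes stood at −0.01, 0.16 and 0.09 with H3B-6527, against 0.04, −0.04 and 0.00 with vehicle. Library totals of H3B-6527 replicates 1 to 3 were 40.4, 38.9 and 23.8 M counts and their positions on the first principal component of all genes 61.7, 38.7 and 18.8. Whether either bears on the order of the respiratory genes was not tested.

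**Figure D4:**
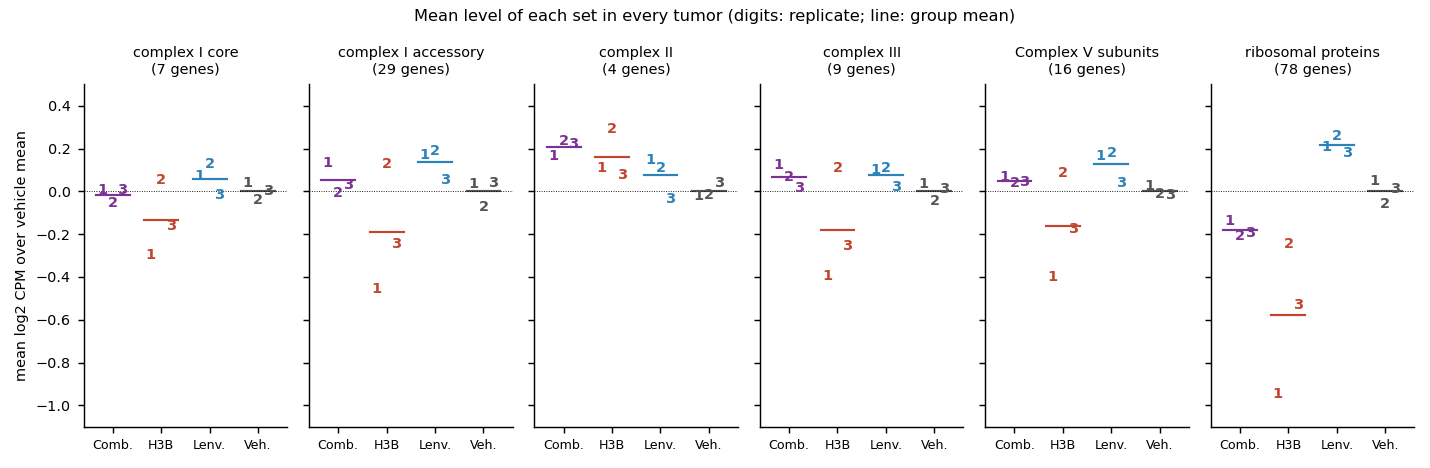
Mean over genes of log2 CPM relative to each gene's vehicle mean (vertical axis) in the 12 tumors, with digits for replicates and lines for group means, for complexes I, II and III, complex V and cytosolic ribosomal proteins. H3B-6527 replicate 1 is lowest in all panels but that of complex II, and H3B-6527 replicate 2 is the highest H3B-6527 tumor in all 6.

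The comparison of lenvatinib with vehicle addresses lenvatinib given alone. With edgeR on all 12 libraries 0 of 52 genes passed, as did 0% of all genes, 4 of the 52 had an unadjusted p under 0.05, beside 10.7% of all genes, and DESeq2 and limma-voom each called 0. The values were small and mostly positive: 45 of 52 were above 0, beside 8160 of 15836 over all genes. Their median was 0.10 beside 0.01 over all genes. The mean log2 CPM relative to vehicle, over the 50 genes without NDUFA4L2 and UQCRHL, was 0.14, 0.16 and 0.03 in lenvatinib replicates. In vehicle replicates it was 0.03, −0.06 and 0.03, so that lenvatinib replicate 3 was level with vehicle replicates 1 and 3. In 16 genes all lenvatinib tumors exceeded all vehicle tumors and in 0 all lay below, beside 11.8% and 10.9% of all genes. UQCRB, with 0.37 ± 0.14 (adjusted p = 0.332), was the gene called when lenvatinib and vehicle were fitted alone, and NDUFB10 had 0.35 ± 0.13 (adjusted p = 0.324). The 95% interval lay within 2-fold for 50 of 52, beside 81.4% of all genes.

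The combination against H3B-6527 asks what lenvatinib added to the FGFR4 inhibitor. No respiratory gene passed with edgeR, 11 had an unadjusted p under 0.05 beside 9.42% of all genes, limma-voom called 0 and DESeq2 called 1, NDUFA4L2. Over all genes 0.0126% passed with edgeR. Of the 52 values 46 were positive, beside 7514 of 15836 over all genes. Medians were 0.22 for complex I, 0.04 for complex II and 0.17 for complex III, beside −0.01 over all genes. The genes moved together between tumors, so these are not 46 independent values. The mean over 50 genes was −0.38, 0.13 and −0.21 in H3B-6527 replicates 1 to 3. In combination replicates it was 0.11, 0.02 and 0.04, so that H3B-6527 replicate 2 lay above all combination tumors. Here 1 gene, NDUFA4L2, had groups that did not overlap, beside 13.1% of all genes.

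Setting the combination against lenvatinib asks what H3B-6527 added to lenvatinib. NDUFA9, NDUFS5 and UQCRH were among the 4 genes that fell, and SDHD rose. In all 5 of 52 passed, or 9.62%, beside 40% of all genes, with 20.9% lower and 19.1% higher of all genes. NDUFS5 fell by 0.68 ± 0.17 (adjusted p = 0.00855), UQCRH by 0.59 ± 0.18 (adjusted p = 0.0236) and NDUFA9 by 0.33 ± 0.11 (adjusted p = 0.0227), and SDHD rose by 0.32 ± 0.10 (adjusted p = 0.0213). None of these 4 genes had overlapping groups. Groups did not overlap for 12 of the 52 lower and 7 higher, beside 29.7% and 27.2% of all genes. NDUFS5 passed in all alternatives. The UQCRH call was lost with no low-count filter, without lenvatinib replicate 1, 2 or 3 or without combination replicate 1, 2 or 3 (adjusted p from 0.052 to 0.0757). The NDUFA9 call was lost without lenvatinib replicate 1 or 2 or without combination replicate 1 or 2 (adjusted p from 0.0602 to 0.0775). The SDHD call was lost with library totals, without lenvatinib replicate 3 or without combination replicate 2 or 3 (adjusted p from 0.0516 to 0.0915). A contrast of the combination minus both single agents plus vehicle, which tests non-additivity on the log2 scale, gave 0 calls among the 52 with edgeR, DESeq2 and limma-voom, as edgeR did over all genes (0%), and 1 unadjusted p under 0.05, for UQCR11, beside 5.39% of all genes. The UQCR11 contrast was 0.69 ± 0.31 (adjusted p = 0.909).

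Genes around complexes I to III were counted in the same comparisons. Of 18 assembly factors of complex I, 1 rose and 3 fell with the combination, and 2 rose and 4 fell with H3B-6527. NDUFAF4, which guides early assembly steps and is known as a MYC-induced gene, had 8.29, 8.12 and 8.91 CPM in combination tumors, 7.13, 9.704 and 8.13 CPM in H3B-6527 tumors, 13.8, 18.6 and 17.7 CPM in lenvatinib tumors and 22.03, 19.8 and 23.7 CPM in vehicle tumors. It fell by 1.39 ± 0.14 (adjusted p = 6.95e-06) with H3B-6527 and by 1.37 ± 0.14 (adjusted p = 8.18e-06) with the combination. Among the 52 subunit genes the lowest log2 fold change was −1.66 with H3B-6527, that of NDUFA4L2, and −0.67 with the combination, that of NDUFS5. NDUFAF2 had log2 fold changes of −0.42 ± 0.15 (adjusted p = 0.0373) with the combination and −0.73 ± 0.16 (adjusted p = 0.00203) with H3B-6527, and FOXRED1, also an assembly factor, had log2 fold changes of 0.40 ± 0.10 (adjusted p = 0.00422) with the combination and 0.41 ± 0.10 (adjusted p = 0.00384) with H3B-6527. Of 4 complex II assembly factors, 1 rose and 0 fell with the combination, and 0 rose and 1 fell with H3B-6527, SDHAF3 having −0.48 ± 0.16 (adjusted p = 0.0229) with H3B-6527. Of 6 complex III assembly factors, 0 rose and 1 fell with the combination, and 1 rose and 2 fell with H3B-6527, TTC19 having 0.26 ± 0.07 (adjusted p = 0.00865) with H3B-6527. The calls made up 22.2% and 33.3% of complex I factors, 25% and 25% of complex II factors and 16.7% and 50% of complex III factors in these comparisons, beside 50.1% of all genes tested with the combination and 49.4% with H3B-6527.

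In complex IV, 4 rose and 0 fell with the combination, and 1 rose and 2 fell with H3B-6527, of 12 subunit genes tested among 15 in the table. COX5A, a subunit on the matrix side, had 56.1, 57.8 and 52.6 CPM in combination tumors, 50.3, 61.9 and 46.95 CPM in H3B-6527 tumors, 43.9, 38.6 and 35.4 CPM in lenvatinib tumors and 39.6, 37.99 and 34.4 CPM in vehicle tumors. It rose by 0.51 ± 0.11 (adjusted p = 0.00223) with H3B-6527 and by 0.57 ± 0.11 (adjusted p = 0.000966) with the combination. COX7B had log2 fold changes of −0.14 ± 0.14 (adjusted p = 0.443) with the combination and −0.47 ± 0.14 (adjusted p = 0.0146) with H3B-6527, and COX6B1 had −0.34 ± 0.13 (adjusted p = 0.0436) with H3B-6527. Of 16 complex V genes, 3 rose and 1 fell with the combination, and 1 rose and 4 fell with H3B-6527. ATP5L, a membrane subunit, fell by 0.56 ± 0.12 (adjusted p = 0.00187) with H3B-6527 and by 0.36 ± 0.12 (adjusted p = 0.0237) with the combination. ATP5E had −0.50 ± 0.17 (adjusted p = 0.0309) and ATP5J2 −0.46 ± 0.17 (adjusted p = 0.0376) with H3B-6527. Of 8 complex I and III genes of the mitochondrial genome, 0 rose and 0 fell with the combination, and 0 rose and 4 fell with H3B-6527. These had between 2.16 and 33.4 CPM with vehicle, and MT-ND2 had −0.43 ± 0.15 (adjusted p = 0.0284) with H3B-6527. Whether reads at these levels stand for the mitochondrial transcripts of the tumors was not tested, so the calls are counts only. With the combination and with H3B-6527, 33.3% and 25% of complex IV genes, 25% and 31.2% of complex V genes and 0% and 50% of the mitochondrial genes were called, against 50.1% and 49.4% of all genes tested.

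Electron carriers and other entry points of electrons were counted too. Of 12 genes for cytochrome c and coenzyme Q synthesis, 5 rose and 4 fell with the combination, and 4 rose and 3 fell with H3B-6527. COQ8A, a kinase-like protein of the synthesis complex, fell by 0.68 ± 0.09 (adjusted p = 3.88e-05) with H3B-6527 and by 0.56 ± 0.09 (adjusted p = 0.000173) with the combination, PDSS1, which starts the side chain, by 0.81 ± 0.14 (adjusted p = 0.000468) and 0.98 ± 0.14 (adjusted p = 0.000119), and COQ5, a methyltransferase, rose by 0.81 ± 0.14 (adjusted p = 0.000394) and 0.96 ± 0.14 (adjusted p = 0.000115). Of 7 genes that feed coenzyme Q by other routes, 4 rose and 1 fell with the combination, and 4 rose and 1 fell with H3B-6527. The proline oxidase PRODH rose by 1.06 ± 0.17 (adjusted p = 0.000262) with H3B-6527 and 1.33 ± 0.17 (adjusted p = 4.45e-05) with the combination. ETFA and ETFDH, which carry electrons from fatty acid oxidation, rose by 0.45 ± 0.09 (adjusted p = 0.00087) and 0.67 ± 0.13 (adjusted p = 0.000949) with H3B-6527 and by 0.52 ± 0.09 (adjusted p = 0.000309) and 0.67 ± 0.13 (adjusted p = 0.000925) with the combination. Of 13 citric acid cycle enzymes, 4 rose and 0 fell with the combination, and 5 rose and 2 fell with H3B-6527, OGDH and SUCLG1 having H3B-6527 values of 0.40 ± 0.10 (adjusted p = 0.00453) and 0.30 ± 0.09 (adjusted p = 0.0122). Of 16 iron-sulfur cluster genes, 3 rose and 2 fell with the combination, and 3 rose and 2 fell with H3B-6527, NFS1 having 0.39 ± 0.08 (adjusted p = 0.00096), GLRX5 0.48 ± 0.11 (adjusted p = 0.00223) and HSPA9 −0.42 ± 0.12 (adjusted p = 0.00879) with H3B-6527. None of the 3 supercomplex genes passed with H3B-6527, and COX7A2L had 0.43 ± 0.11 (adjusted p = 0.00556) with the combination. Beside 50.1% of all genes tested with the combination and 49.4% with H3B-6527, calls made up 75% and 58.3% of the cytochrome c and coenzyme Q genes, 71.4% and 71.4% of the genes of other entry points, 30.8% and 53.8% of the citric acid cycle genes, 31.2% and 31.2% of the iron-sulfur genes and 33.3% and 0% of the supercomplex genes. The shares of the citric acid cycle genes with H3B-6527 and the cytochrome c and coenzyme Q genes with H3B-6527 lie near that of all genes.

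Among 13 regulators of respiratory genes, 2 rose and 9 fell with the combination, and 2 rose and 7 fell with H3B-6527. MYC fell by 2.78 ± 0.17 (adjusted p = 4.91e-07) with H3B-6527 and by 1.77 ± 0.17 (adjusted p = 5.58e-06) with the combination. PPRC1, a coactivator of the PGC-1 family, had 25.3, 20.7 and 24.4 CPM in combination tumors, 23.97, 24.9 and 25.00 CPM in H3B-6527 tumors, 45.97, 60.6 and 48.3 CPM in lenvatinib tumors and 76.5, 66.1 and 73.03 CPM in vehicle tumors. It fell by 1.54 ± 0.11 (adjusted p = 1.11e-06) with H3B-6527 and by 1.61 ± 0.11 (adjusted p = 1.27e-06) with the combination. The orphan receptor ESRRG rose by 1.76 ± 0.16 (adjusted p = 3.41e-06) with H3B-6527 and by 1.35 ± 0.16 (adjusted p = 2.32e-05) with the combination. The median log2 fold change of the 13 was −0.56 with the combination and −0.50 with H3B-6527, beside 0.01 and 0.01 over all genes tested and 0.08 and −0.10 over the 52 subunit genes. Over all genes 25.3% fell and 24.8% rose with the combination, and 24.3% fell and 25.2% rose with H3B-6527.

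**Figure D5:**
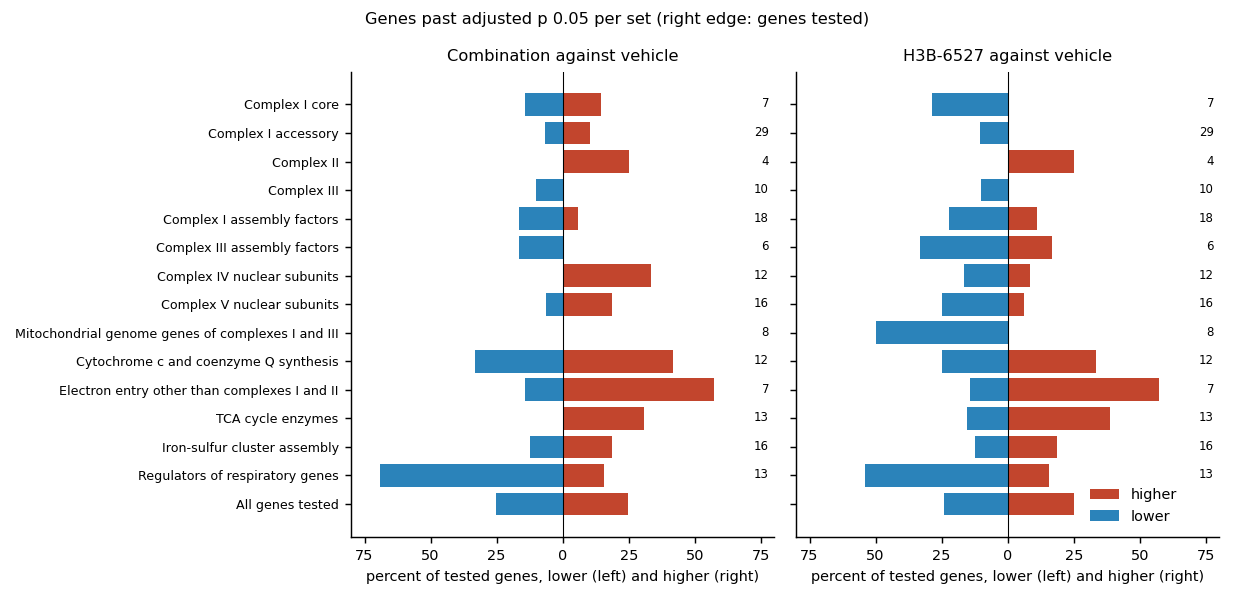
Percent of tested genes per set past adjusted p 0.05, higher to the right (red) and lower to the left (blue), with the combination against vehicle in the left panel and H3B-6527 against vehicle in the right panel. The bars of complex I accessory subunits and of complex III are short beside those of all genes tested (bottom). They are also short beside those of the regulators, where more genes fell than rose. The bar of lower complex I core genes with H3B-6527 is not short beside that of all genes.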

How the data were processed

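RNA from 12 Hep3B tumors, 3 mice in each of 4 groups, was sequenced on 4 lanes per library. The deposited table holds expected counts per gene symbol, of which 40.3% are not whole numbers, and its library totals differ between tumors. STAR, kallisto, GRCh37 and GRCm38 are named per the submitters' processing notes. Versions, roles, annotation and strandedness are not given in the sources used here. Although the samples are labelled as mouse, the table lists human symbols, and host reads could add to conserved genes. Splitting of reads between near-identical genes follows kallisto's estimates.

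Counts were rounded to whole numbers and 9157 of 36292 symbols were 0 in every library. filterByExpr kept 15836 genes, which were fitted in edgeR 4.0.16 (R 4.3.3) with TMM factors and a robust quasi-likelihood F-test, 2-sided, on all 12 libraries at once with 8 residual degrees of freedom. The Benjamini-Hochberg adjustment ran over every tested gene of a comparison, with a threshold of 0.05. Errors of log2 fold changes are SEs, computed as the absolute log2 fold change over the square root of F. Intervals are 95% intervals from these SEs and the total degrees of freedom of each gene's test, which include those from the spread shared between genes. The fits were tested on simulated data.

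Alternatives were DESeq2 1.42.0, limma-voom 3.58.1, library totals, upper-quartile factors, other low-count filters, fits of the 2 groups compared and leaving out each tumor. A count of 3, taken as the lowest level that could be seen, was 0.0733 to 0.126 CPM. Replicates were numbered in accession order, which pairs no tumors. The genes and lists were chosen with earlier results of these data known. Values per tumor are given for the complex I core subunits, the 4 genes of each complex with the smallest p against vehicle with H3B-6527 and with the combination, NDUFA4, NDUFA4L2, CYC1, UQCRH, UQCRHL, UQCRFS1, the SDH genes and genes that passed in another comparison. From each other list up to 3 genes with the smallest p for H3B-6527 against vehicle are named. A few further genes (NDUFS6, NDUFC2, NDUFAB1, UQCRC1, UQCRC2, UQCRQ) were chosen after their values were seen. Counts cover all 52 genes, but individual results of 1 of them and of 1 list gene are not reported here. Sequences and coordinates of the human genes were not used here.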

Additional observations from a re-analysis of the deposited data

How the results depend on the processing

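NDUFS5 and SDHD passed against vehicle with H3B-6527 and with the combination under all 13 alternatives run, as did UQCRH with H3B-6527. With H3B-6527 the genes lower (7) numbered 17 with library totals, 4 with upper-quartile factors, 2 in a fit of the 2 groups and 2 to 22 on leaving out a tumor, where those higher (1) numbered 1 to 4. With the combination those higher (5) numbered 1 with library totals, 11 with upper-quartile factors and 12 in a fit of the 2 groups, and those lower (4) numbered 7 with library totals and 1 to 4 without a tumor. For the combination against lenvatinib those higher (1) numbered 0 with library totals, 2 with DESeq2, 3 with upper-quartile factors, 2 with the 1 CPM filter, 2 in a fit of the 2 groups and 0 to 2 without a tumor. Those lower (4) numbered 7 with library totals, 7 in a fit of the 2 groups and 1 to 4 without a tumor. A fit of the 2 groups called 1 gene higher for lenvatinib against vehicle, and DESeq2 called 1 higher for the combination against H3B-6527.

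Library totals moved the median of complex II to −0.027 with H3B-6527 and, for the combination against vehicle, the medians of complexes I, II and III to −0.082, −0.0099 and 0.024. Upper-quartile factors gave 0.19 and 0.23 for complexes II and III there. For the combination against lenvatinib, library totals gave −0.19, 0.0031 and −0.022. Some genes that did not pass changed sign. With H3B-6527 and library totals, SDHB was −0.091, SDHC −0.12 and UQCRFS1 −0.040. SDHC was also −0.0020 with DESeq2, −9.2e-06 with limma-voom and −0.0073 with no filter. On leaving out a tumor, SDHB ran from −0.060 to 0.092 and SDHC from −0.056 to 0.056. With the combination and library totals, SDHB was −0.068 and SDHC −0.061. Under library totals the median over all genes was −0.11 with H3B-6527, −0.14 for the combination against vehicle and −0.11 for the combination against lenvatinib. The cause was not tested. No paired analysis was possible because the labels carry no replicate numbers or animal pairing. The low counts of NDUFA4L2 and UQCRHL limit what their values can show.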
